A study of Pongo abelii with 8 samples.

Results

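The Polycomb complex genes examined here were EZH1, EZH2, EED, SUZ12, JARID2, MTF2, PHC1, PHC2, BMI1 and RNF2. Members were taken as every probe set (a group of short probes on the array that together measure 1 transcript region) whose annotation carried exactly 1 gene symbol and whose symbol was on this list of 10. This gave 16 probe sets of the 22277 on the array, for 8 of the 10 genes. BMI1 and RNF2 had no probe set with a single symbol and were not analysed here as members. The symbol rule used no expression value, but the list of 10 was chosen with earlier results of these data known.

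RNA was measured on one-colour Affymetrix arrays, whose probes were designed for human transcripts, in cells of 2 Sumatran orangutans (Pongo abelii). Donor KB10460 was a female of 43 years and donor KB10973 a male of 29 years. From each donor 1 array held primary skin fibroblasts, grown from punch biopsies of the upper limb, and 3 arrays held separately expanded colonies of induced pluripotent stem cells (iPSCs), numbered 1 to 3. The study made these iPSCs and profiled their expression beside that of the fibroblasts they came from. All iPSC colonies had received retroviruses carrying human OCT4, SOX2, KLF4 and c-MYC, and the fibroblast cultures had not. The iPSCs were maintained with mouse feeder cells or medium conditioned by them. The 3 colonies of a donor came from 1 fibroblast culture, so that the p-values measure the spread between cultures of 2 animals and not between animals. There was no human sample and no second fibroblast culture of either donor.

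Polycomb proteins keep developmental genes silent and act in 2 complexes. Polycomb repressive complex 2 (PRC2) methylates histone H3 through EZH2 or its paralog EZH1, with SUZ12 as the scaffold and EED as the subunit that reads the mark, while JARID2 and MTF2 are accessory subunits that help to bring the complex to chromatin. Polycomb repressive complex 1 (PRC1) ubiquitinates histone H2A through RNF2 or RING1, together with a PCGF subunit such as BMI1, and its polyhomeotic subunits PHC1 and PHC2 can join complexes to each other through their SAM domains. In pluripotent cells both complexes occupy the promoters of many lineage regulators, and the accessory subunits JARID2 and MTF2 are known as abundant in embryonic stem cells.

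Values are log2 expression values after RMA, a method that corrects background, gives all arrays the same distribution of probe signals and summarises each probe set. A difference of 1 is a doubling. The array medians lay between 3.74 and 3.82, so that a value close to these may be mostly background and a fold change from it understates the change in RNA. Probe sets with a limma fold change above 1.5 were called if their adjusted p (Benjamini-Hochberg, over all 22277 probe sets) was below 0.05. Levels of different probe sets cannot be set against each other, since each has its own probes and its own mismatches to orangutan RNA. Only differences within a probe set are compared. In these bulk samples, fewer cells that express a gene and less RNA per cell cannot be told apart.

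The labelled cell types were checked against marker genes. All 7 pluripotent cell markers counted by a probe set with a single symbol were higher in iPSCs, led by LIN28A, L1TD1 and DNMT3B. POU5F1, TDGF1 and ZFP42 were planned as markers but are not among these 7, and SOX2 was called at only 1 of its 3 probe sets. The median over the 7 was 7.38 to 9.64 in the iPSC arrays against 3.54 and 3.48 in the fibroblast arrays of KB10460 and KB10973. Of 14 fibroblast markers 13 were lower in iPSCs, and the list median was 4.08 to 4.45 in iPSCs against 8.46 and 8.92 in fibroblasts. THY1, a surface glycoprotein, was the exception, with a log2 change of 2.79 at the brightest of 3 probe sets, the other 2 of which were not called. In iPSCs 5 of the 14 fibroblast markers had means below the array median, and the collagen gene COL1A2 still read 7.58 there. The genes with the largest falls were DCN, COL3A1 and COL6A3, at means of 3.78, 3.74 and 3.52 in iPSCs. Of 11 neural, muscle, mesoderm and endoderm markers 4 (36.4%) were higher in iPSCs, against 15.2% of all genes. These were NES, AFP, TUBB3 and TBXT, at changes of 2.20, 2.08, 2.04 and 1.63. Cell cycle genes moved too and are given with EZH2.

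Of the 16 Polycomb probe sets, 10 were higher in iPSCs, 1 was lower and 5 were not called. Over all probe sets 12.2% were called higher and 9.60% lower. The members and all probe sets were not matched for level, and many of the latter are dim. With a filter that kept the 7491 probe sets over log2 5 in at least 2 arrays, 4033 were called in either direction. Of the members 10 were then higher and 1 lower. In 12 of the 16 the iPSC and fibroblast arrays did not overlap, 10 of them with iPSCs higher, against 38.0% of all probe sets without overlap in either direction. By gene, taking the probe set with the highest mean, EZH2, SUZ12, JARID2, MTF2 and PHC1 were higher, PHC2 was lower, and EZH1 and EED were not called, where 15.2% of 11963 genes were higher and 11.5% lower. The median log2 change of the member probe sets was 2.05, against -0.01 over all probe sets. The 5 probe sets of MTF2 and 2 of JARID2 weigh heavily in it. With 1 probe set per gene the median log2 change was 1.63, against -0.00 over all genes. The increases were thus uneven, from 1.63-fold for SUZ12 to 32.8-fold for PHC1. As the list was chosen with earlier results of these data known, the contrasts with all probe sets and genes describe it and do not test it.

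**Figure D1:**
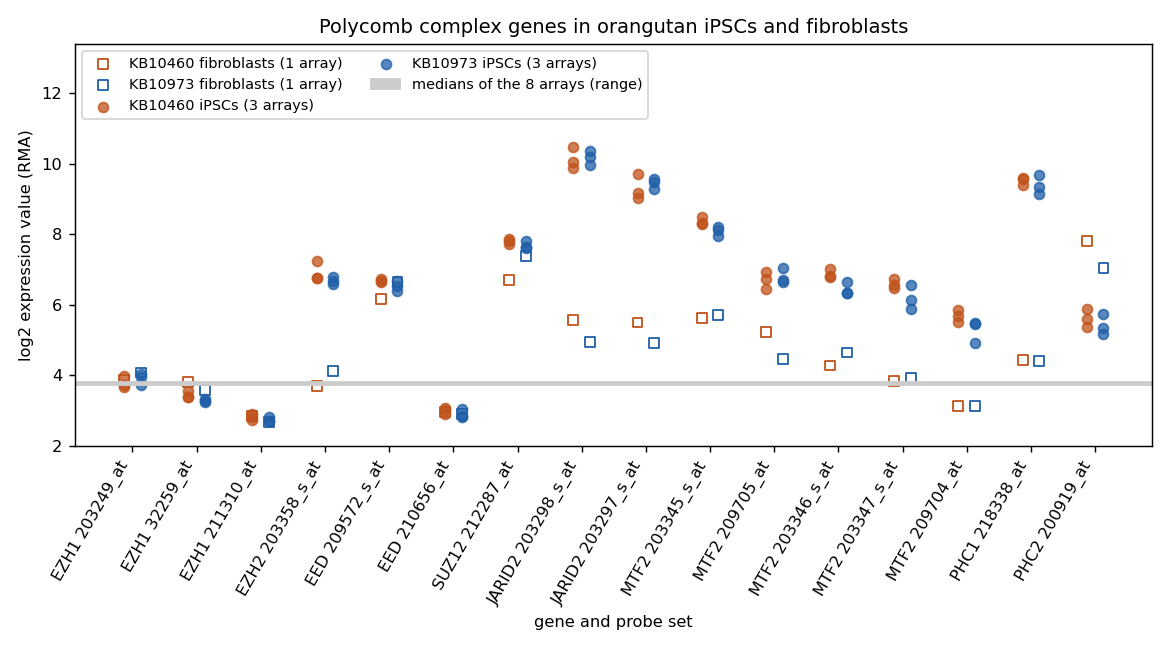
Log2 expression value (RMA, vertical axis) of each of the 16 Polycomb probe sets (horizontal axis) on every array. Open squares are the single fibroblast arrays of each donor, filled circles the 3 iPSC colonies of each donor, and the grey band spans the medians of the 8 arrays (3.74 to 3.82). JARID2, MTF2, PHC1 and EZH2 circles lie clear above the squares, PHC2 circles lie below them, and EZH1 and the EED probe sets lie together.

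Of the catalytic subunits of PRC2, EZH2 was called higher and EZH1 was not called. EZH2, the histone methyltransferase of dividing cells, had 1 probe set (203358_s_at), which read 3.70 in KB10460 fibroblasts and 4.13 in KB10973 fibroblasts. The colonies of KB10460 read 7.25, 6.77 and 6.76 and those of KB10973 read 6.60, 6.67 and 6.80, a mean of 6.81 ± 0.23 (SD, n = 6) against 3.92 ± 0.30 (SD, n = 2). All colonies lay above both fibroblast cultures, which were close to the array median. The change was 2.89 on the log2 scale with a standard error (SE) of 0.17 and a 95% interval from 2.50 to 3.29, or 7.42-fold (limma, Benjamini-Hochberg adjusted p = 2.7e-06). Within its array the probe set stood on average at percentile 86.3 in iPSCs and 51.9 in fibroblasts.

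EZH1, the paralog that also serves cells that no longer divide, had 3 probe sets and none was called. The brightest (203249_at) read 3.87 and 4.08 in the fibroblasts of KB10460 and KB10973 and 3.67 to 4.03 in iPSCs, with a median of 3.84. These groups overlapped, and the change of -0.13 had a 95% interval from -0.41 to 0.15. A second probe set (32259_at) read 3.80 and 3.57 in fibroblasts and 3.24 to 3.54 in iPSCs. Here every colony lay just below both fibroblast cultures, at a change of -0.33 (SE 0.10, adjusted p = 0.035 by limma), or 1.26-fold, which is under the fold threshold. Its adjusted p ranged from 0.014 to 0.30 over the alternatives run. The remaining probe set (211310_at) read under 3 on every array and changed by 0.01. All 3 lay close to or below the array median in both cell types, so that a change of low EZH1 RNA may not have been detectable.

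The difference of EZH2 and EZH1 within an array, taken at the probe set of each with the highest mean, was -0.16 in KB10460 fibroblasts, 0.05 in KB10973 fibroblasts and 2.64 to 3.58 in iPSCs. No iPSC array came near the fibroblast arrays. The mean moved by 3.02, from -0.06 ± 0.15 (SD, n = 2) to 2.96 ± 0.33 (SD, n = 6), with p = 0.0357 by a two-sided exact permutation test, the smallest p that 28 assignments of 8 arrays allow, and the same value after adjustment over both paralog pairs tested. With arrays assigned only within their donor p was 0.0625 by the exact permutation test, the smallest that this allows. Since EZH1 read close to the array median in both cell types, this difference largely repeats the change of EZH2 and is no measure of the ratio of the RNAs.

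Cell cycle genes were also mostly higher in iPSCs. Of 20 measured 17 (85%) were higher and none was lower, against 15.2% and 11.5% of all genes, with a median change of 2.24. The 3 not called, named after their values were seen, were MKI67, TYMS and E2F1. MKI67 changed by 0.35 (limma, adjusted p = 0.061) at the brightest of 4 probe sets, none of which was called. The mitotic checkpoint kinase gene BUB1 rose by 4.33 at the brightest of 5 probe sets, the only 1 of them called, and the mitotic cyclin genes CCNB1 and CCNB2 by 3.95 and 3.60. The median of this list was 7.44 to 8.04 in the iPSC arrays, 4.40 in KB10460 fibroblasts and 5.45 in KB10973 fibroblasts. In 18 of the 20 genes the KB10973 fibroblasts read higher than those of KB10460, a count that was not taken over all genes. EZH2 read 4.13 in KB10973 and 3.70 in KB10460 fibroblasts. The part of cell division in the EZH2 change was not tested.

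SUZ12 was called higher by a small margin, and EED was not called. SUZ12, the scaffold, had 1 probe set (212287_at), which read 6.70 in KB10460 fibroblasts, 7.39 in KB10973 fibroblasts and 7.61 to 7.86 in iPSCs, with a median of 7.77. All colonies were above both fibroblast cultures, but the fibroblast cultures differed from each other by more than the whole range of the colonies. The change was 0.70 (SE 0.16, 95% interval 0.34 to 1.07), or 1.63-fold, with an adjusted p of 0.0090 by limma. Without the KB10460 fibroblast array it was 0.36 (adjusted p = 0.070) and without the KB10973 fibroblast array 1.05 (adjusted p = 0.00023), so that the call rested on the former array. The call was also lost with the colonies of a donor averaged (adjusted p = 0.17) and at a fold threshold of 2.

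EED, which binds the methylated histone and stimulates the enzyme, was not called at either probe set. The brighter (209572_s_at) read 6.17 in KB10460 fibroblasts, 6.65 in KB10973 fibroblasts and 6.39 to 6.74 in iPSCs, with a median of 6.66. The KB10973 fibroblast value lay inside the range of the colonies. The change was 0.20 (SE 0.14) with a 95% interval from -0.11 to 0.51, whose upper end lies below the interval of EZH2. Without the KB10460 fibroblast array it was -0.04 (adjusted p = 0.90) and without the KB10973 fibroblast array 0.44 (adjusted p = 0.046), still under the fold threshold. The dimmer (210656_at) stayed between 2.82 and 3.06 on all arrays, below the array median.

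The accessory subunits JARID2 and MTF2 were higher at all their probe sets, JARID2 with the largest change of the PRC2 members. JARID2, a Jumonji-family protein without demethylase activity that binds PRC2, had 2 probe sets. The brighter (203298_s_at) read 5.57 in KB10460 fibroblasts, 4.95 in KB10973 fibroblasts and 9.89 to 10.48 in iPSCs, with a median of 10.13. The lowest colony was far above the higher fibroblast culture. The change was 4.90 (SE 0.20, 95% interval 4.46 to 5.35), or 29.9-fold (limma, adjusted p = 1.9e-07). The other (203297_s_at) went from 5.50 and 4.91 in fibroblasts to 9.04 to 9.72 in iPSCs, a change of 4.17 (SE 0.20), or 18.0-fold (adjusted p = 7.2e-07). Both probe sets thus ranked the arrays alike by cell type, and both read higher in KB10460 than in KB10973 fibroblasts. JARID2 stood at percentile 98.0 of its array in iPSCs and 74.1 in fibroblasts.

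MTF2, a Polycomb-like protein that links PRC2 to CpG-rich DNA, had 5 probe sets, all higher in iPSCs. Their folds were alike although their levels were not, at 3.75 to 5.90. The brightest (203345_s_at) read 5.63 in KB10460 fibroblasts, 5.71 in KB10973 fibroblasts and 7.95 to 8.50 in iPSCs, with a median of 8.25. The change was 2.56 (SE 0.13, 95% interval 2.26 to 2.86), or 5.90-fold (limma, adjusted p = 9.8e-07). The dimmest (209704_at) read 3.14 and 3.13 in the fibroblasts and 4.91 to 5.86 in iPSCs, a change of 2.35 (SE 0.20). Fibroblast values of this probe set lay below the array median, at percentile 16.2. The smallest MTF2 change, 1.91 (SE 0.21, adjusted p = 0.00011), was that of 209705_at, the probe set in which the fibroblasts of the donors differed most, at 5.22 and 4.47. The remaining probe sets 203346_s_at and 203347_s_at changed by 2.20 (SE 0.19) and 2.51 (SE 0.20). In none of the 5 did a colony reach down to a fibroblast culture.

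**Figure D2:**
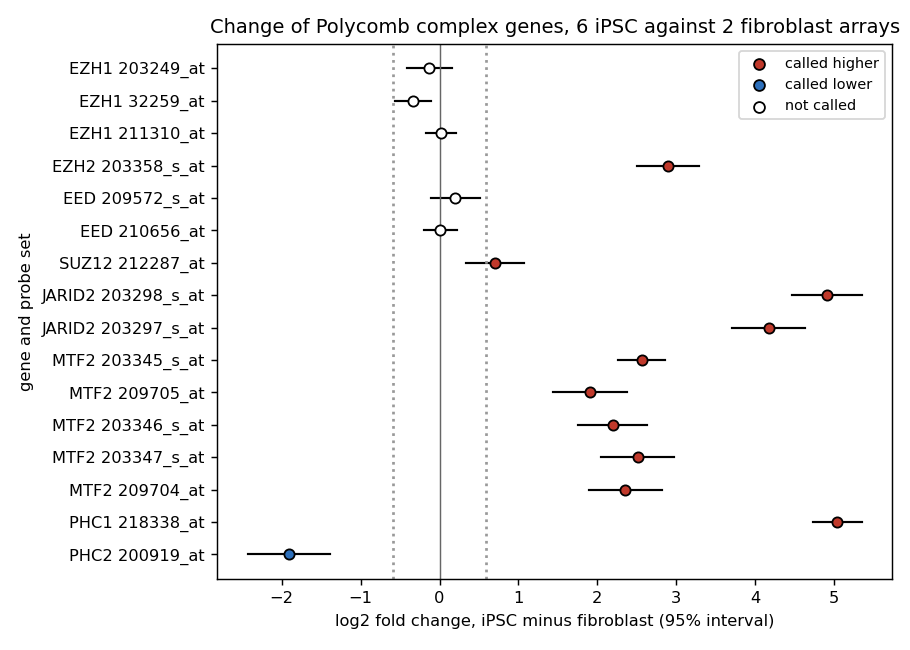
Log2 fold change of each Polycomb probe set (vertical axis), iPSCs minus fibroblasts, with the 95% interval from limma (horizontal axis). Dotted lines mark a fold change of 1.5 in each direction, and filled points are called. PHC1 (5.04) and JARID2 (4.90 and 4.17) lie farthest to the right, the 5 MTF2 probe sets lie between 1.91 and 2.56, and PHC2 (-1.91) is the only probe set called lower.

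The polyhomeotic subunits of PRC1 changed in opposite directions. PHC1 had 1 probe set (218338_at), which read 4.44 in KB10460 fibroblasts and 4.40 in KB10973 fibroblasts. The colonies of KB10460 read 9.56, 9.61 and 9.40 and those of KB10973 read 9.34, 9.69 and 9.15. The fibroblast cultures were nearly equal, and all colonies lay far above them. The change of 5.04 (SE 0.14, 95% interval 4.73 to 5.35), or 32.8-fold, was the largest of the members (limma, adjusted p = 1.5e-08). The probe set went from percentile 63.4 of the fibroblast arrays to 96.9 of the iPSC arrays.

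PHC2 (200919_at) read 7.81 in KB10460 fibroblasts and 7.05 in KB10973 fibroblasts. The colonies of KB10460 read 5.88, 5.59 and 5.38 and those of KB10973 read 5.34, 5.18 and 5.75. Every colony lay below both fibroblast cultures, though still above the array median, at percentile 76.1 against 90.4 in fibroblasts. The change was -1.91 (SE 0.23, 95% interval -2.42 to -1.39), a 3.75-fold lower value in iPSCs (limma, adjusted p = 0.00021).

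Within an array, PHC1 minus PHC2 was -3.37 and -2.65 in the fibroblasts of KB10460 and KB10973 and 3.40 to 4.50 in iPSCs. The sign differed between the cell types in all 8 arrays. The mean moved by 6.94, from -3.01 ± 0.51 (SD, n = 2) to 3.94 ± 0.37 (SD, n = 6), with p = 0.0357 by the same two-sided exact permutation test, again the smallest the design allows, and 0.0625 with assignment within donors. Every colony lay above both fibroblast cultures in PHC1 and below both in PHC2. The difference therefore had to separate the cell types, and its p adds nothing to the 2 separate changes. As the 2 probe sets differ in their probes, the sign within an array does not say which RNA was more abundant. The third polyhomeotic gene, PHC3, also singled out afterwards, read near the array median at 3.30 ± 0.07 (SD, n = 6) in iPSCs and 3.42 ± 0.17 (SD, n = 2) in fibroblasts and was not called (change -0.12, adjusted p = 0.39).

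**Figure D3:**
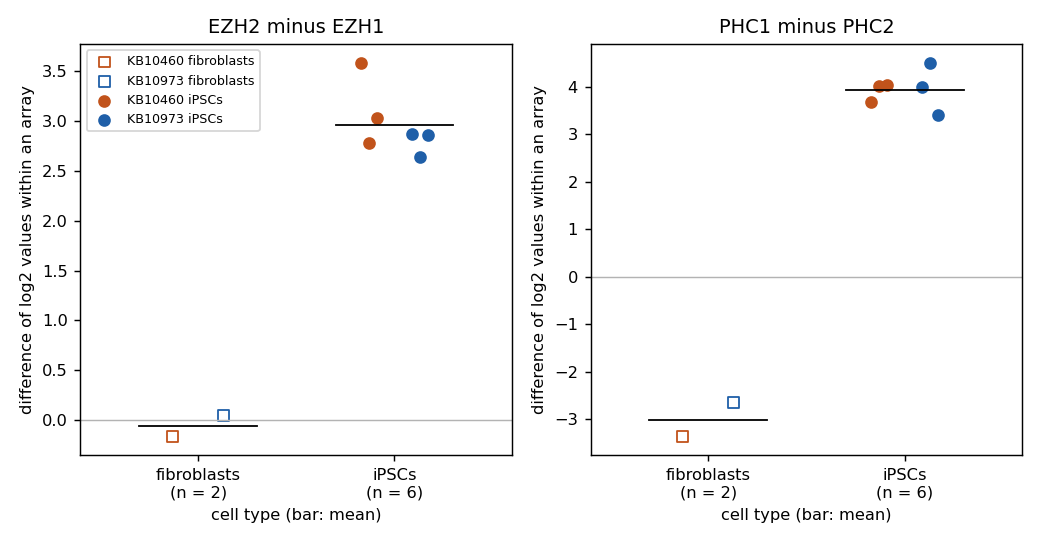
Difference of log2 values within each array (vertical axis) for EZH2 minus EZH1 and for PHC1 minus PHC2, in fibroblasts (n = 2) and iPSCs (n = 6), with the mean as a bar. EZH2 minus EZH1 moves from about 0 to 2.64 to 3.58, and PHC1 minus PHC2 from -3.37 and -2.65 to 3.40 to 4.50.

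The median SD of the 6 colonies was 0.21 over the member probe sets and 0.13 over all probe sets. Only 3 of the 16 lay below the array median in iPSCs, so that members and all probe sets were not matched for level. Colony 1 of KB10460 was the highest of the 6 colonies in 7 of the 16, a count that was not taken over all probe sets. All 11 called probe sets changed the same way in both donors, and in each of them every colony lay on the same side of the fibroblasts of its own donor. This had to be so, since in these 11 every colony lay beyond both fibroblast arrays. The size varied by donor. EZH2 changed by 3.22 in KB10460 and 2.56 in KB10973, SUZ12 by 1.10 and 0.30, PHC2 by -2.19 and -1.62, JARID2 at the brighter probe set by 4.57 and 5.23, and PHC1 by 5.08 and 4.99.

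None of the 16 probe sets was called for a difference of the change between the donors, where 2.91% of all probe sets were. In simulated arrays this test recovered 0 of 200 probe sets given a log2 difference of 1. Those 200 were fewer than the 648 called here, so that the simulation does not give the power in these data. Each donor had 1 fibroblast array, which the model took to vary like a colony, so that the lack of a call says little. At an unadjusted p under 0.05 there were 4 of the 16, against 15.2% of all probe sets. The SUZ12 change was smaller in KB10973 by 0.80 (SE 0.18, adjusted p = 0.062), and the other such probe sets were the brighter EED and MTF2 203346_s_at and 209705_at, with adjusted p of 0.13, 0.14 and 0.24. The MTF2 probe sets went opposite ways, at differences of -0.80 and 0.85.

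**Figure D4:**
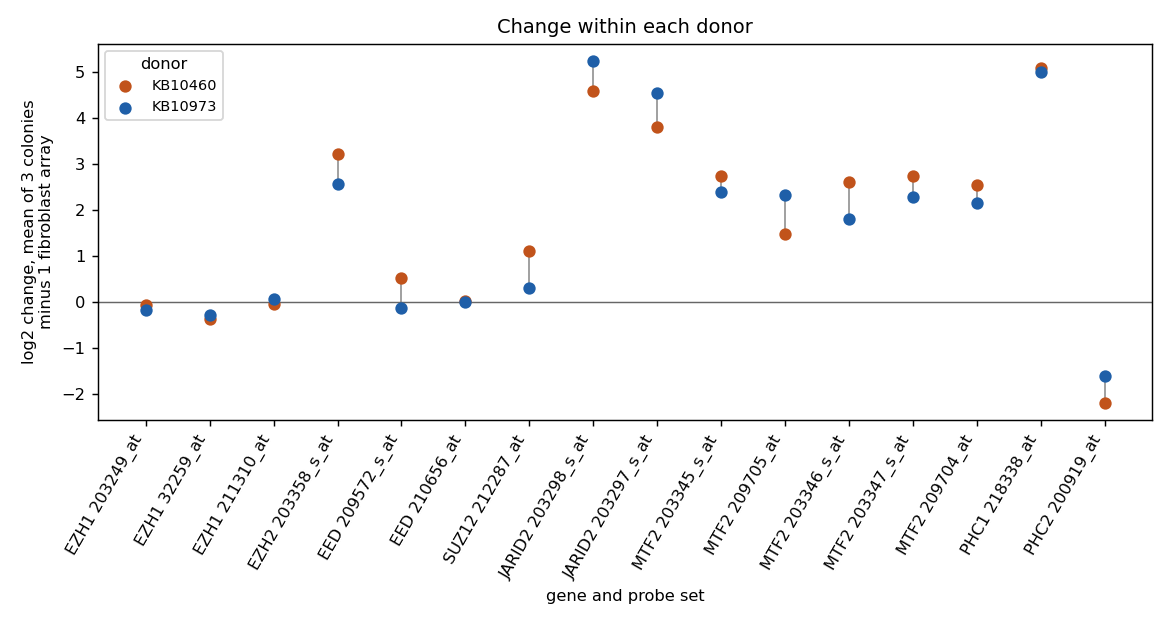
Log2 change within each donor (vertical axis), the mean of its 3 iPSC colonies minus its single fibroblast array, for the 16 Polycomb probe sets (horizontal axis). Both donors lie on the same side of 0 for every called probe set, and the donors lie closest for PHC1 (5.08 and 4.99) among the members that changed most.

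Between the iPSCs of the donors none of the 16 probe sets was called, where 20 of all probe sets (0.0898%) were. At an unadjusted p under 0.05 there were 3, against 10.2% of all probe sets, and all 3 belonged to MTF2. Probe set 203346_s_at was lower in KB10973 than in KB10460 colonies by 0.43 on the log2 scale (95% interval -0.70 to -0.16, limma adjusted p = 0.27), 203345_s_at by 0.28 (adjusted p = 0.40) and 209704_at by 0.40 (adjusted p = 0.48). Of the 5 MTF2 probe sets 4 were lower in KB10973 colonies. These probe sets measure 1 gene and do not count as separate observations. In the fibroblasts, with 1 array per donor and no test, the members differed between donors by a median of 0.30 in size, against 0.17 over all probe sets. This contrast was not matched for level either.

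Of 28 other Polycomb genes measured in 3 lists, 3 (10.7%) were higher, 4 (14.3%) lower and 21 not called, close to the 15.2% higher and 11.5% lower of all genes. Their median change was -0.03, against -0.00 over all genes. Among other PRC2 genes, 1 of 3 was higher and 1 lower. The histone-binding subunit gene RBBP4 rose by 1.68, from 6.69 and 7.40 in fibroblasts to a mean of 8.73 ± 0.22 (SD, n = 6), and PHF1, a Polycomb-like paralog of MTF2, fell by 0.74 (limma, adjusted p = 0.031) at the brighter of its 2 probe sets. The other PHF1 probe set was not called. The PHF1 call was lost without 4 of the 8 arrays in turn, with a change of -0.46 (adjusted p = 0.30) without the KB10460 fibroblast array and adjusted p of 0.054 to 0.056 without colony 1 of KB10460 or colony 2 or 3 of KB10973. Without the KB10973 fibroblast array 6 of the 28 other genes were higher, and without the KB10460 fibroblast array, colony 1 of KB10460, or colony 2 or 3 of KB10973, 2 were lower.

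Among other PRC1 genes, 2 of 19 were higher and 2 lower. AUTS2, a subunit of PRC1 variants that has been tied to gene activation, read 4.58 and 5.32 in fibroblasts and 7.22 ± 0.16 (SD, n = 6) in iPSCs, a change of 2.27 (limma, adjusted p = 1.8e-05). RYBP, which replaces the chromobox subunit in variant PRC1, rose by 1.29 (adjusted p = 0.00037) at the brightest of 3 probe sets, 2 of which were called. The chromobox gene CBX6, whose protein belongs to the canonical complex with the polyhomeotic subunits, fell by 1.82 at the brighter of its probe sets (adjusted p = 5.3e-05), and both of its probe sets were called. CBX7, named here after its value was seen as the other gene called lower, changed by -0.65 (adjusted p = 0.047), a call lost without 7 of the 8 arrays in turn, colony 3 of KB10460 being the exception, with a change of -0.46 (adjusted p = 0.33) without the KB10460 fibroblast array. RING1, the paralog of RNF2 and likewise named afterwards, changed by -0.20 and was not called (adjusted p = 0.16).

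Among 6 genes for the opposing enzymes, the histone H2A deubiquitinase complex and the demethylases of the PRC2 mark, none was higher and 1 was lower. This was ASXL1, a partner of the deubiquitinase, which fell by 0.91 at the brightest of 3 probe sets (limma, adjusted p = 0.00081), while the other 2 were not called. The demethylase genes KDM6A and KDM6B, named after their values were seen, were not called at their brightest probe sets, although 1 of the 3 KDM6A probe sets was called higher.

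Of 33 genes known as Polycomb targets, 2 (6.06%) were higher in iPSCs, 8 (24.2%) lower and 23 not called, against 15.2% and 11.5% of all genes, with a median change of -0.21. The list holds developmental genes and the cell cycle genes CDKN2A (called lower, change -2.96), CDKN2B (not called) and CCND2 (called higher). The genes that changed most were HOXC6, a limb and trunk homeobox gene (fell by 6.40), WNT5A, a secreted ligand (fell by 6.06), and GATA3, a transcription factor gene (fell by 4.53). HOXC6 read 10.00 and 9.97 in fibroblasts and 3.32 to 3.95 in iPSCs, the latter close to the array median. In iPSCs 22 of the 33 genes had means below the array median, and in fibroblasts 18 did, so that most of this list was dim in both cell types. The 2 genes higher in iPSCs, named after their values were seen, were GATA6, an endoderm regulator (3.94, adjusted p = 0.0067), whose colonies spread from 5.88 to 9.03, and the D-type cyclin gene CCND2 (1.54, adjusted p = 0.0016). Without the KB10460 fibroblast array 1 was higher, since GATA6 then had an adjusted p of 0.052 at a change of 3.78. CCND2 changed by 1.03 without the KB10973 fibroblast array (adjusted p = 0.0099). No binding or histone mark was measured, so that no link of these genes to the complexes was tested.

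**Figure D5:**
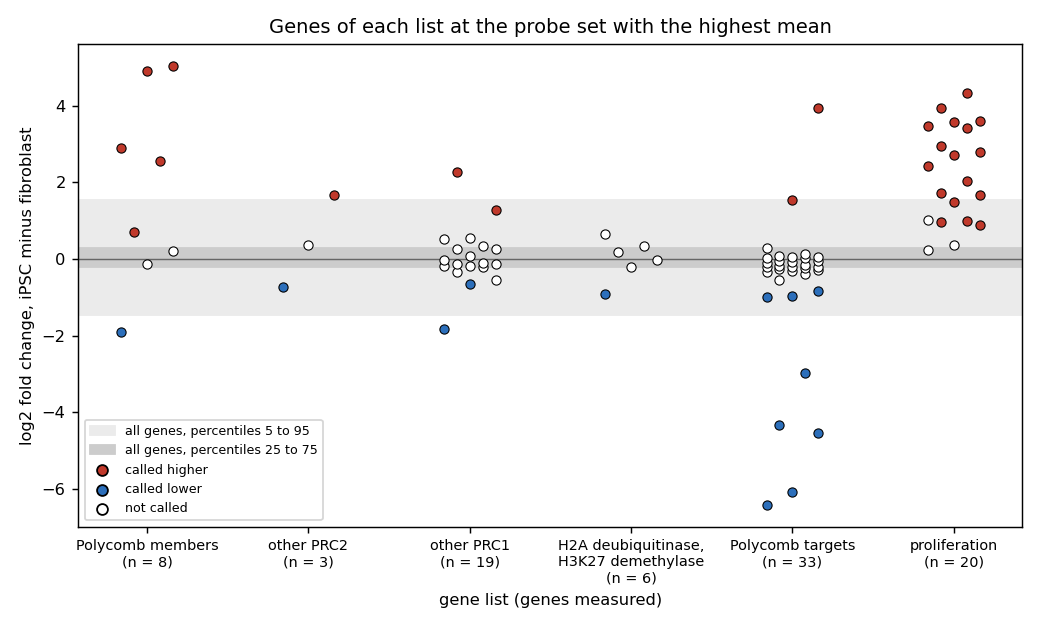
Log2 fold change, iPSCs minus fibroblasts (vertical axis), of every measured gene of 6 lists, each shown by its brightest probe set, with the middle 50% and 90% of all genes shaded. The 8 members and the 20 proliferation genes lie mostly above 0, the other Polycomb genes mostly near 0, and the called Polycomb targets mostly below it.

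The genes whose profile over the 8 arrays lay nearest to each member were found by Euclidean distance between log2 values centred on their mean. The distance describes these arrays only, in which cell type sets most of the pattern. PHC1 was nearest to ANK3 (0.56), ASNS (0.86) and DLGAP5 (0.88), and JARID2 to ANK3 (0.74), DNMT3B (0.92) and CDH1 (0.92). EZH2 was nearest to ATP1B1 (0.27), AURKB (0.45) and LGR4 (0.50), MTF2 to NANOG (0.34), NET1 (0.36) and UCHL1 (0.40), SUZ12 to MRPL46 (0.16), TUBA1A (0.20) and ZNF329 (0.22), and PHC2 to SERINC3 (0.49), BHLHE41 (0.52) and GEM (0.53). EZH1 was nearest to RWDD2B (0.16), ZNF516 (0.19) and RUFY1 (0.19) and EED to AIRIM (0.17), MED18 (0.18) and CHKB (0.19), all flat profiles like their own. PHC1 and JARID2 had the largest nearest distances of the 8 genes.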

How the data were processed

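Gene expression was measured in 8 cultures on one-colour Affymetrix arrays for human transcripts. The authors normalized the arrays by RMA in WebArray (its version: not given in the sources used here) and deposited log2 values for 22277 probe sets, of which 19070 carry 1 gene symbol, 1043 several and 2164 none in the platform annotation. RMA gives the arrays 1 distribution, so that a global shift in RNA is not visible. Precision is limited by how many arrays there are. No array column was without a sample (0). The test of 6 iPSC against 2 fibroblast arrays was limma 3.58.1 (lmFit, eBayes) in R 4.3.3, without a block. Donor comparisons used the iPSC arrays alone or 4 groups. Genes were taken at the probe set with the highest mean over all arrays. The scripts were tested on simulated data. Named were all members and, of each other list, the 3 called genes with the largest change, and the 3 nearest genes to each member. Other genes named were chosen after their values were seen. The members and lists were chosen with earlier results of these data known. Fibroblasts and iPSCs of an animal are paired by the donor in the labels, and a fit with donor as a block was an alternative. Colony numbers share only a number between donors, and donor differences in fibroblasts and in iPSCs correlated at r = 0.0178 over probe sets. Alternatives covered thresholds, moderation, weights, blocks, centring, a low-value filter (log2 over 5 in at least 2 arrays, 7491 probe sets kept), averaged colonies, the probe set of a gene and leaving out each array. Sequences of the members were not analysed here.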

Additional observations from a re-analysis of the deposited data

Results flagged for a closer look

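Of the 16 member probe sets, 1 had a colony that stood apart from the other 5. In EZH2 (203358_s_at) colony 1 of KB10460 read 7.25 and the other colonies 6.60 to 6.80, so that the gap to the nearest colony was 0.682 of the range of all 6, above Dixon's critical value of 0.625. With a test at the 95% level some probe sets among 16 pass by chance. Without that array the EZH2 call and direction held.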

How the results depend on the processing

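Over 18 or 19 alternatives per member probe set, 296 of 300 values kept their call, and 0 of the called values changed sign. Without an array in turn, 7 values of 3 uncalled probe sets (both of EED and EZH1 211310_at) changed sign close to 0. The 3 losses were all SUZ12, and EZH1 32259_at was called lower with no fold threshold, which made 2 member probe sets lower. Counting probe sets with several symbols, added after seeing the data, also gave 2. Leaving out an array for each named gene outside the members was added after seeing the data too. The donor as a replicate block changed no member call. With it, the exact permutation p of the changes of 3.02 (EZH2 minus EZH1) and 6.94 (PHC1 minus PHC2) was 0.0625, and with colonies averaged 0.333, the smallest those designs allow. Leaving out an array gave 2.89 to 3.13 and 6.58 to 7.30, with p = 0.143 by the same exact test, again the smallest possible, without a fibroblast array. Only probe sets without a shared suffix (_x_at or _s_at) gave 3 member genes higher, 1 other Polycomb gene higher, and 1 Polycomb target higher and 5 lower, since fewer probe sets were counted. Other Polycomb genes higher were 5 with no fold threshold and 3 to 6 without an array. Those lower were 1 at a fold over 2, 2 at an adjusted p under 0.01, with array weights, averaged colonies or the median probe set, and 2 to 5 without an array. Polycomb targets lower were 5 at a fold over 2 or with the low-value filter. Those higher were 1 with averaged colonies and 1 to 2 without an array. With averaged colonies, 11 proliferation genes were higher. Apart from the settings whose construction counts fewer probe sets or arrays, the cause was not tested. No member probe set was called in either donor comparison under the alternatives run, the colony number as a replicate block included (0 called). For the difference of the change this says little, since each donor had 1 fibroblast array. Signal near the array median limits EZH1, EED 210656_at and most targets.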

Other observations

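A further 3 probe sets carried a member symbol together with that of another gene and were assigned to neither. The probe set annotated to COMMD3-BMI1 and BMI1 (202265_at) read 5.96 ± 0.03 (SD, n = 2) in fibroblasts and 4.10 ± 0.21 (SD, n = 6) in iPSCs, a log2 change of -1.86 (SE 0.14, limma adjusted p = 1.3e-05). The probe set annotated to M6PR and PHC1 (200901_s_at) changed by 0.16 (adjusted p = 0.59) and did not follow the PHC1 probe set with a single symbol. The probe set annotated to SUZ12 and its pseudogene SUZ12P1 (213971_s_at) changed by 0.17 (adjusted p = 0.71).

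The 10 measured genes nearest to PHC1 in gene order on its chromosome were a comparison chosen after the PHC1 value was seen. None was higher in iPSCs and 2 were lower, against 15.2% and 11.5% of all genes. With only 10 genes these counts are no result about the region. The 2 lower genes were MFAP5 (-3.01, limma adjusted p = 0.018) and A2M (-1.26, adjusted p = 0.011). The median change of the 10 was -0.15. MFAP5 read 8.55 in KB10460 and 4.48 in KB10973 fibroblasts, and its change was -0.97 without the former array and -5.04 without the latter. A2M read 5.28 and 3.84, with changes of -0.54 (no longer past the fold threshold) and -1.98.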
